A study of Homo sapiens with 6 samples.

Results

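DNA methylation maintenance and TET enzymes were followed here in parental ZR-75-1 cells treated with abemaciclib or DMSO. The genes were the 3 DNA methyltransferases DNMT1, DNMT3A and DNMT3B, the RING finger proteins UHRF1 and UHRF2, the chromatin remodeller HELLS, and the 3 TET dioxygenases TET1, TET2 and TET3. They were taken from the count table by matching its Ensembl identifiers to these symbols, and all 9 were found among the 60656 genes of the table. ZR-75-1 is an oestrogen receptor-positive human breast cancer line, and abemaciclib inhibits the cyclin-dependent kinases CDK4 and CDK6. Both groups were unedited parental cells, grown in the same serum-containing medium. One group of 3 libraries received abemaciclib at 500 nM for 4 days, and the other group of 3 libraries received DMSO for 4 days. The comparison asks how the RNA of these genes differed once CDK4/6 had been inhibited. The libraries came from 1 cell line, and the labels number them as replicates without naming separate cultures. The paper describes its RNA-seq of this line as 3 independent biological replicates per condition. The p-values therefore measure the spread between replicates of 1 line. The RB1 knockout libraries were not analysed here. RNA was measured in bulk, so fewer cells that express a gene and less RNA per cell cannot be told apart. Neither protein nor DNA methylation was measured in these libraries.

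In vertebrate cells, DNA replication leaves each methylated CpG with a methyl group on the old strand alone. UHRF1 binds these hemimethylated sites and ubiquitinates histone H3 and PCLAF, and DNMT1 docks on those marks and copies the methyl group to the new strand, a reaction that HELLS supports by remodelling nucleosomes. DNMT3A and DNMT3B methylate CpGs without such a template, and the TET enzymes oxidize 5-methylcytosine, which allows the mark to be lost by dilution or by base excision. The maintenance genes are known as S phase genes, and promoters of such genes often carry sites for E2F factors, which Rb holds inactive when CDK4/6 are inhibited.

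The libraries held 3317860 to 4013156 counts on genes. A level is given as CPM, the counts scaled to a common library total that was corrected by the TMM method. The 3′ mRNA kit gives about 1 read per transcript whatever its length, so CPM was compared between genes without dividing by length. A count of 0 allowed up to 3 counts, which was 0.74 to 0.909 CPM depending on the library, and this limit covers counting error only. The test was edgeR's quasi-likelihood test of abemaciclib over DMSO in 10863 genes, and a gene was called at a Benjamini–Hochberg adjusted p under 0.05. All 8 luminal epithelial markers were tested, with a summed level of 8739 to 9245 CPM with DMSO and 12690 to 14280 CPM with abemaciclib. Of them 4 were higher (ESR1, KRT19, XBP1 and TFF1) and 1 lower (KRT18), beside 12.5% higher and 13.3% lower among all genes tested. GATA3, FOXA1 and KRT8 were not called. The largest log2 fold change among the 8 was that of TFF1, 2.50, from a mean of 622.4 to 3511 CPM. The basal markers KRT5, KRT14 and TP63 had 0 counts in every library, as did 2 of 3 fibroblast, 2 of 3 immune and 2 of 3 endothelial markers. Of those last lists, the summed level reached 15.8 CPM with DMSO and 15.4 CPM with abemaciclib for fibroblast markers, all of it COL1A1, and at most 1.51 CPM for the others.

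Upstream sequence is shown for the 4 genes that changed, because E2F heptamers were searched there on both strands. The heptamer TTCCCGC was taken as the first form, with the heptamer TTGGCGC as the next, and the search also took the heptamer TTCGCGC as a form and, as the last form, the heptamer TTGCCGC. Each line holds the 250 bases before a RefSeq start on GRCh38.p14, written 5′ to 3′ on the strand of the gene, and capitals mark a heptamer or, where it lies on the other strand, its reverse complement. The HELLS window is chr10:94545538-94545787 on the plus strand, the UHRF1 window chr19:4909251-4909500 on the plus strand, the TET3 window chr2:73984660-73984909 on the plus strand and the DNMT1 window chr19:10194954-10195203 on the minus strand.
HELLS: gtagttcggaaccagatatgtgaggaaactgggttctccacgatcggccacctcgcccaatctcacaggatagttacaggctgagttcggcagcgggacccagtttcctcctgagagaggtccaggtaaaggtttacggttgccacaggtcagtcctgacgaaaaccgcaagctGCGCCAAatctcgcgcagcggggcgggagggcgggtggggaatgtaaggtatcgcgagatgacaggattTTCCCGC
UHRF1: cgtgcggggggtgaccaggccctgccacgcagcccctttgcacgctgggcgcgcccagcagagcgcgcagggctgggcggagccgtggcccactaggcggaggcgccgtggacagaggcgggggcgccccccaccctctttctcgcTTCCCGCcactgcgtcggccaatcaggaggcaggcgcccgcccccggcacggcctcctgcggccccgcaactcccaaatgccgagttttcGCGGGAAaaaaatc
TET3: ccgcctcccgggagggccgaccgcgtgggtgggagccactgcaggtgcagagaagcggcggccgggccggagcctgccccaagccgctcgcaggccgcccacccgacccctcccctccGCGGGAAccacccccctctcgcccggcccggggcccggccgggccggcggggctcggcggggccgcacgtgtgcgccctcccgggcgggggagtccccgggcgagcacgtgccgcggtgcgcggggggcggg
DNMT1: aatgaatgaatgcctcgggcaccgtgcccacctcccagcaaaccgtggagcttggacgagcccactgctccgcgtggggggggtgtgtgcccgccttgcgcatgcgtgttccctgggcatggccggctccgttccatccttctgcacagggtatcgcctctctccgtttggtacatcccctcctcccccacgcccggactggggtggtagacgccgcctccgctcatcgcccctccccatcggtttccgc
The HELLS window held TTGGCGC on the opposite strand, 76 to 70 bases before the start, and TTCCCGC 7 to 1 bases before it. The UHRF1 window held TTCCCGC 104 to 98 bases before the start and again, on the opposite strand, 14 to 8 bases before it. A further UHRF1 window, not printed, held TTCGCGC 159 to 153 bases before its start, and the last UHRF1 window, also not printed, held no heptamer. The TET3 window held TTCCCGC on the opposite strand, 132 to 126 bases before the start, and the DNMT1 window held none of these letters. Another TET3 window, not printed, held no heptamer. Over all 9 genes RefSeq listed 20 such windows. An E2F heptamer was in 5 of them, or 25.0% of windows, against 10.9% of the 35116 windows of all genes. Counted by gene, 4 of the 9 had a heptamer in any window, UHRF1, UHRF2, HELLS and TET3, against 13% of the 27305 genes. These rates were not matched for windows per gene or for GC content, and some windows of the same gene overlap. They therefore do not show whether heptamers are enriched in the 9 genes. UHRF2, which was not called, carried TTGGCGC 36 to 30 bases before its start, and DNMT1, which fell, carried none. The CHR hexamers TTTGAA and TTCGAA, letters found at promoters of late cell cycle genes, were in 14.3% of all windows and in those of TET2 alone among the 9 genes, where TTTGAA stood 146 to 141 bases before the start on the opposite strand and 109 to 104 bases before it on the strand of the gene. A match is a description of letters in a window and was not tested as a binding site.

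With abemaciclib, 4 of the 8 genes tested fell and 0 rose by edgeR's quasi-likelihood test, and the same counts were called by DESeq2 and at an unadjusted p under 0.05. The 4 were the maintenance genes DNMT1, UHRF1 and HELLS, and the dioxygenase TET3, which fell to between 28.7% and 57.9% of the DMSO level. Of all genes tested, 13.3% were called lower and 12.5% higher, and the median log2 fold change was -0.59 over the 8 genes against -0.0018 over all genes. In these same 4 genes every abemaciclib library lay below every DMSO library, which held for 20.1% of all genes tested, and no gene of the 9 had every abemaciclib library above every DMSO library, which held for 19.1% of all genes. UHRF2, DNMT3A, DNMT3B and TET2 were not called, and TET1 had too few counts to be tested. No other annotated gene overlapped the last exon of any of the 9 genes, and the pseudogenes DNMT3AP1, TET1P1 and UHRF2P1 had 0 counts in every library.

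**Figure D1:**
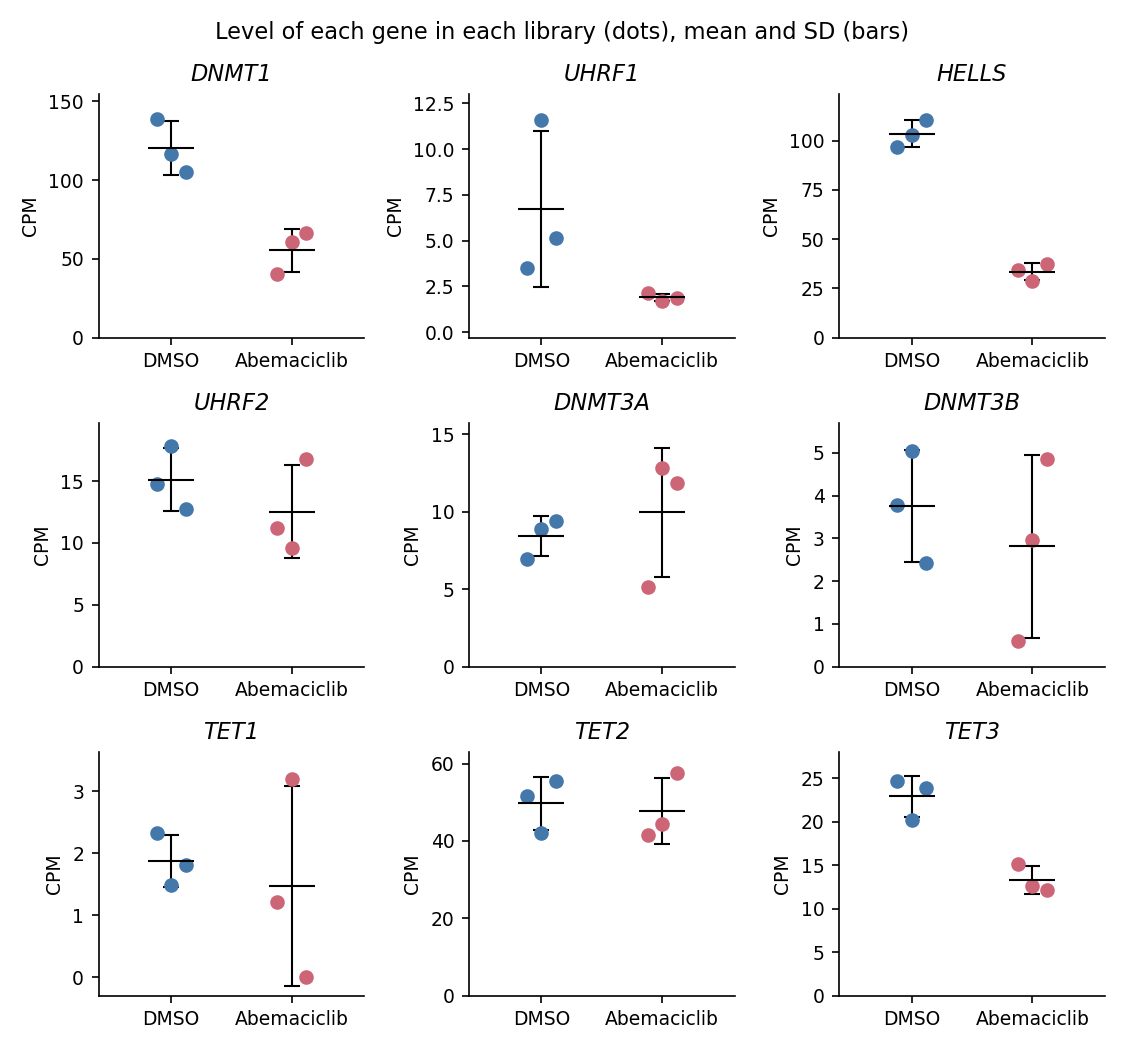
Each panel plots the level of 1 gene in CPM, on a linear axis of its own, in the 3 DMSO libraries (blue dots) and the 3 abemaciclib libraries (red dots), with a line at the mean and bars of 1 SD. The dots of both groups are apart for DNMT1, UHRF1, HELLS and TET3 and overlap for the other 5 genes.

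DNMT1, the maintenance methyltransferase, was the most abundant of the 9 genes with DMSO. It lies at chr19:10133342-10231286 on the minus strand of GRCh38 and has 41 exons in its canonical transcript. Its level was 138.6, 116.7 and 105.1 CPM in the 3 DMSO libraries and 40.2, 60.5 and 66.2 CPM in the 3 abemaciclib libraries. The groups did not overlap, and abemaciclib replicate 1 was the lowest of the 6 libraries. The mean went from 120.2 ± 17.0 to 55.6 ± 13.6 CPM (SD, n = 3 each), a log2 fold change of -1.11 with a standard error of 0.15 and an adjusted p of 1.784e-06 by edgeR's quasi-likelihood test. The abemaciclib level was thus 46.5% of the DMSO level, with a 95% interval of 37.5 to 57.6%.

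HELLS, also called LSH, is an ATP-dependent remodeller of the SNF2 family that DNA methylation needs at packed chromatin. The gene lies at chr10:94545329-94613905 on the plus strand, and its heptamers are the capitals of its upstream window. Its level was 96.9, 102.8 and 110.6 CPM with DMSO and 34.2, 28.9 and 37.3 CPM with abemaciclib. The 3 libraries of each group were close together, and the groups were far apart. The mean went from 103.4 ± 6.86 to 33.5 ± 4.26 CPM (SD, n = 3 each), with a log2 fold change of -1.63, a standard error of 0.14 and an adjusted p of 4.507e-10 by edgeR's quasi-likelihood test. This was 32.3% of the DMSO level, with an interval of 26.4 to 39.6%, and of the 4 genes that fell it had the smallest adjusted p.

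UHRF1, the reader of hemimethylated CpG that recruits DNMT1, was measured from far fewer reads. It lies at chr19:4903080-4962154 on the plus strand. Its counts were 12, 39 and 17 with DMSO and 7 in each abemaciclib library, or 3.48, 11.6 and 5.15 CPM against 2.12, 1.73 and 1.89 CPM. The groups did not overlap, but DMSO replicate 2 was far above the other two DMSO libraries. The mean went from 6.74 ± 4.28 to 1.91 ± 0.196 CPM (SD, n = 3 each), with a log2 fold change of -1.80, a standard error of 0.53 and an adjusted p of 0.0129 by edgeR's quasi-likelihood test. The level was 28.7% of that with DMSO, and its interval, 13.4 to 61.3%, was the widest of the 4 genes that fell. Without DMSO replicate 2 the log2 fold change was -1.17 with an adjusted p of 0.22 by the same edgeR test, and without abemaciclib replicate 2 it was -1.73 with an adjusted p of 0.0516, so the call was lost without either library.

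UHRF2, the paralogue of UHRF1, also binds modified CpG but does not take its place in maintenance. It lies at chr9:6413151-6507054 on the plus strand. Its level was 14.8, 17.8 and 12.7 CPM with DMSO and 11.2, 9.62 and 16.8 CPM with abemaciclib. The groups overlapped, with abemaciclib replicate 3 above DMSO replicates 1 and 3. The log2 fold change was -0.27 with a 95% interval of -0.84 to 0.30 and an adjusted p of 0.526 by edgeR's quasi-likelihood test, and the interval includes both 0 and the fold change of TET3.

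**Figure D2:**
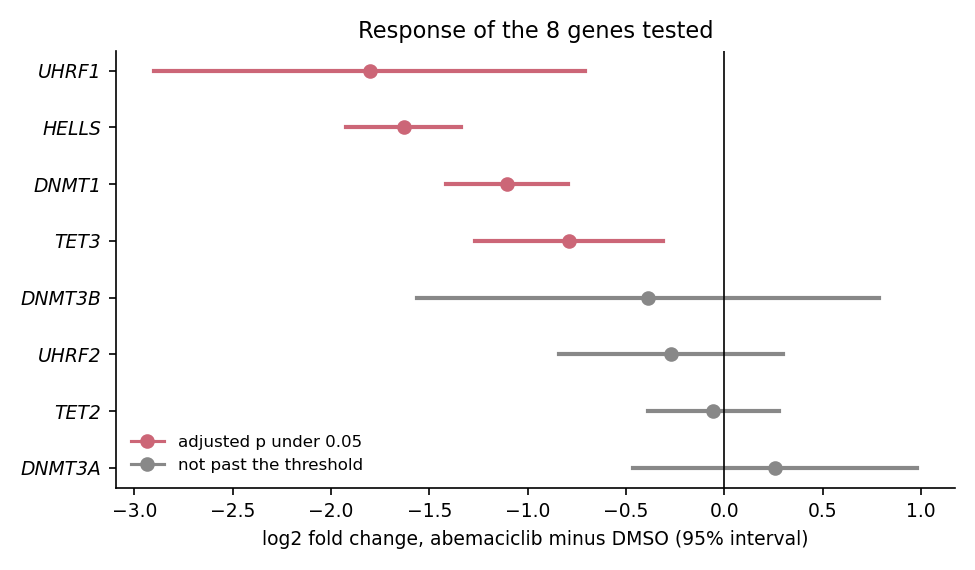
The log2 fold change of abemaciclib over DMSO (horizontal axis) is plotted for each of the 8 genes tested, with its 95% interval from edgeR's fit. Red marks the 4 genes past an adjusted p of 0.05, from UHRF1 at -1.80 to TET3 at -0.79, and grey the 4 whose intervals cross 0.

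DNMT3A and DNMT3B, the de novo methyltransferases, were low in both groups. DNMT3A, at chr2:25227855-25342590 on the minus strand, had 6.96, 8.91 and 9.39 CPM with DMSO and 5.14, 12.8 and 11.9 CPM with abemaciclib. The abemaciclib libraries lay on both sides of the DMSO libraries, replicate 1 below all of them and the other two above. The log2 fold change of DNMT3A was 0.26, with an interval of -0.47 to 0.98 and an adjusted p of 0.657 by edgeR's quasi-likelihood test. DNMT3B, at chr20:32762385-32809359 on the plus strand, had 13, 17 and 8 counts with DMSO and 2, 12 and 18 counts with abemaciclib. These counts were few and the groups overlapped. Its log2 fold change was -0.39, with an interval of -1.56 to 0.78 and an adjusted p of 0.678 by the same edgeR test, an interval that includes 0 and the fold change of DNMT1. DNMT3L, the cofactor of both enzymes in germ cells that has no catalytic activity, had 0 counts in every library.

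Of the TET genes, TET3 was the one called. It lies at chr2:73984910-74108176 on the plus strand, and its level was 24.7, 20.2 and 23.9 CPM with DMSO and 15.1, 12.6 and 12.2 CPM with abemaciclib. Every abemaciclib library was below every DMSO library. The mean went from 22.9 ± 2.39 to 13.3 ± 1.61 CPM (SD, n = 3 each), with a log2 fold change of -0.79, a standard error of 0.23 and an adjusted p of 0.0123 by edgeR's quasi-likelihood test. This was 57.9% of the DMSO level, with an interval of 41.6 to 80.5%, and without DMSO replicate 1 the adjusted p was 0.0524 at a log2 fold change of -0.74.

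TET2, which lacks the CXXC domain that TET1 and TET3 have for binding DNA, was the most abundant TET gene in both groups. It lies at chr4:105145875-105279816 on the plus strand, and its level was 51.6, 42.2 and 55.4 CPM with DMSO and 41.5, 44.4 and 57.6 CPM with abemaciclib. The ranges of the groups overlapped almost fully. The log2 fold change was -0.06 with an interval of -0.39 to 0.28 and an adjusted p of 0.846 by edgeR's quasi-likelihood test, and the fall measured for DNMT1 lies outside that interval. TET1, at chr10:68560337-68694487 on the plus strand, had 8, 5 and 6 counts with DMSO and 4, 13 and 0 counts with abemaciclib. The 0 of abemaciclib replicate 3 allows a level of up to 0.811 CPM, and the other two abemaciclib libraries lay on both sides of the DMSO range, so no difference was detectable at this depth. Without the filter on low counts its log2 fold change was -0.32, with a standard error of 0.86.

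The order of levels differed between the groups in a few places. With DMSO the means ran from DNMT1 and HELLS, whose library ranges overlapped, through TET2, TET3, UHRF2, DNMT3A, UHRF1 and DNMT3B down to TET1 at 1.87 CPM. UHRF1 overlapped in range with both of its neighbours in that order, DNMT3A and DNMT3B, and the other neighbours did not overlap. With abemaciclib TET2 came second, at 47.8 ± 8.57 CPM (SD, n = 3), with a range that overlapped that of DNMT1, and HELLS came next. They were followed by TET3, UHRF2 and DNMT3A, each overlapping in range with the next, and last came DNMT3B, UHRF1 and TET1, which also overlapped. DNMT1 with DMSO was above 87.0% of all genes tested, HELLS above 84.8% and TET2 above 69.3%, while UHRF1 was above 16.5% and DNMT3B above 5.5%.

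Within each family the balance between members was read from shares of the family's counts, which are free of library scaling. DNMT1 held 92.8, 89.3 and 89.9% of the DNMT counts in the DMSO libraries and 87.5, 79.3 and 79.8% in the abemaciclib libraries. Every abemaciclib library was below every DMSO library. Summed over libraries the share was 1218 of 1341 counts, or 90.8% (exact 95% interval 89.2 to 92.3%), with DMSO and 623 of 768, or 81.1% (78.2 to 83.8%), with abemaciclib. The share of DNMT3A was correspondingly larger, 14.7% against 6.34%, and that of DNMT3B was 4.17% against 2.83%. UHRF1 held 19.1, 39.4 and 28.8% of the UHRF counts with DMSO and 15.9, 15.2 and 10.1% with abemaciclib. Here too the groups did not overlap, although DMSO replicate 1 and abemaciclib replicate 1 differed by less than the width of their intervals, 10.2 to 30.9% for the former. TET3 held 31.4, 31.6 and 29.5% of the TET counts with DMSO and 26.2, 20.9 and 17.4% with abemaciclib, and TET2 took 66.7% of the summed TET counts with DMSO and 76.5% with abemaciclib. TET1 was the smallest share in every library, at 2.52% and 2.45% of the summed counts. These intervals cover counting error only, and no test was made between groups of shares.

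**Figure D3:**
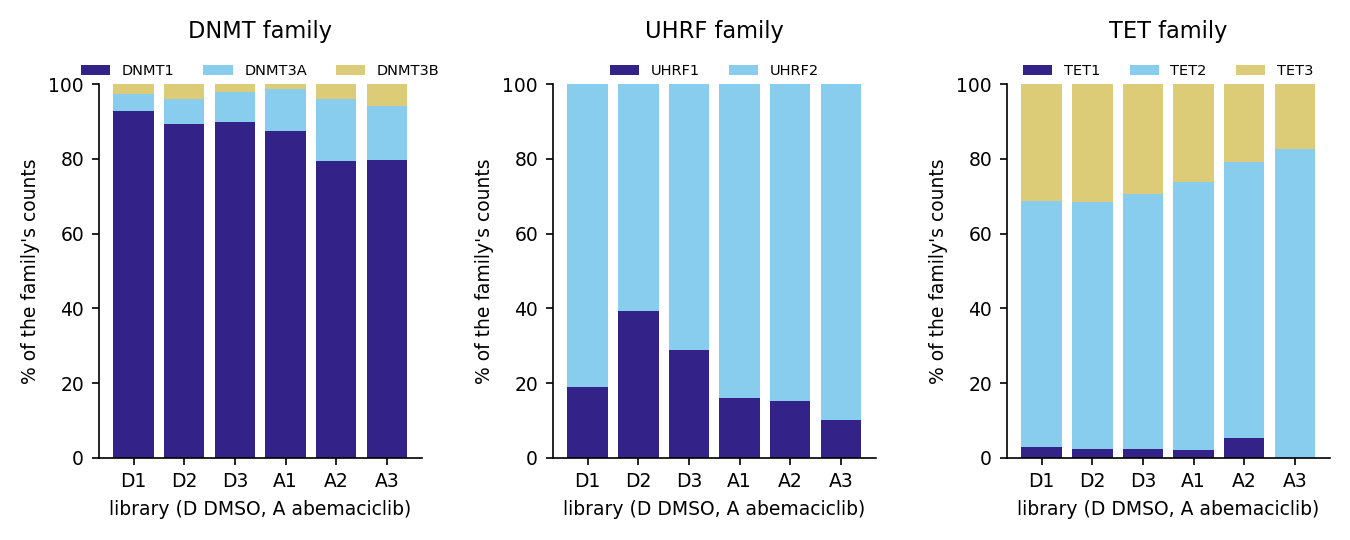
Stacked bars give the percentage of each family's counts that each member held in each of the 6 libraries (D1 to D3 DMSO, A1 to A3 abemaciclib). DNMT1 holds 89.3 to 92.8% of the DNMT counts with DMSO and 79.3 to 87.5% with abemaciclib, UHRF1 is a smaller part of its pair in each abemaciclib library, and TET2 is a larger part of the TET counts.

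The difference between the responses of 2 genes was tested on their log2 ratio within each library, in CPM with 0.5 added, by an exact permutation test over the 6 libraries (two-sided, 9 ratios, Benjamini–Hochberg over them). With 3 libraries against 3 this test cannot give a p below 0.1, so no ratio could pass the threshold. In 4 of the 9 ratios the groups did not overlap, and each of these holds a gene already called lower, DNMT1, UHRF1 or TET3. No rate over ratios of other gene pairs was taken. Among single genes tested, every abemaciclib library lay below every DMSO library in 20.1% and above in 19.1%. The log2 ratio of DNMT1 to DNMT3A was 4.22, 3.64 and 3.42 with DMSO and 2.85, 2.19 and 2.43 with abemaciclib, a difference of -1.27 (exact permutation p = 0.1, adjusted 0.225). That of UHRF1 to UHRF2 was -1.94, -0.60 and -1.23 with DMSO and -2.16, -2.18 and -2.85 with abemaciclib, a difference of -1.14 (exact permutation p = 0.1, adjusted 0.225). The TET genes together were below DNMT1 in every DMSO library, at log2 ratios of -0.81, -0.87 and -0.37, and level with it or above in the abemaciclib libraries, at 0.52, -0.01 and 0.07. This difference was 0.88, and that of TET2 to TET3 was 0.70, again at the smallest p the exact permutation test allows, 0.1.

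The 3 maintenance genes were then set against each other. The log2 ratio of DNMT1 to HELLS was 0.21 ± 0.29 with DMSO and 0.70 ± 0.42 with abemaciclib (SD, n = 3 each), a difference of 0.49 with overlapping groups and an exact permutation p of 0.2. For DNMT1 to UHRF1 the difference was 0.30 (exact permutation p = 0.7) and for UHRF1 to HELLS 0.19 (exact permutation p = 0.8), and in both the libraries overlapped. The direction of these last differences depended on single libraries, since the former was -0.16 without DMSO replicate 2 and the latter -0.11 without DMSO replicate 1. DNMT3A to DNMT3B differed by 0.73 (exact permutation p = 0.2), and TET1 to TET3 by 0.09 (exact permutation p = 0.8), which became -0.61 without abemaciclib replicate 2.

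**Figure D4:**
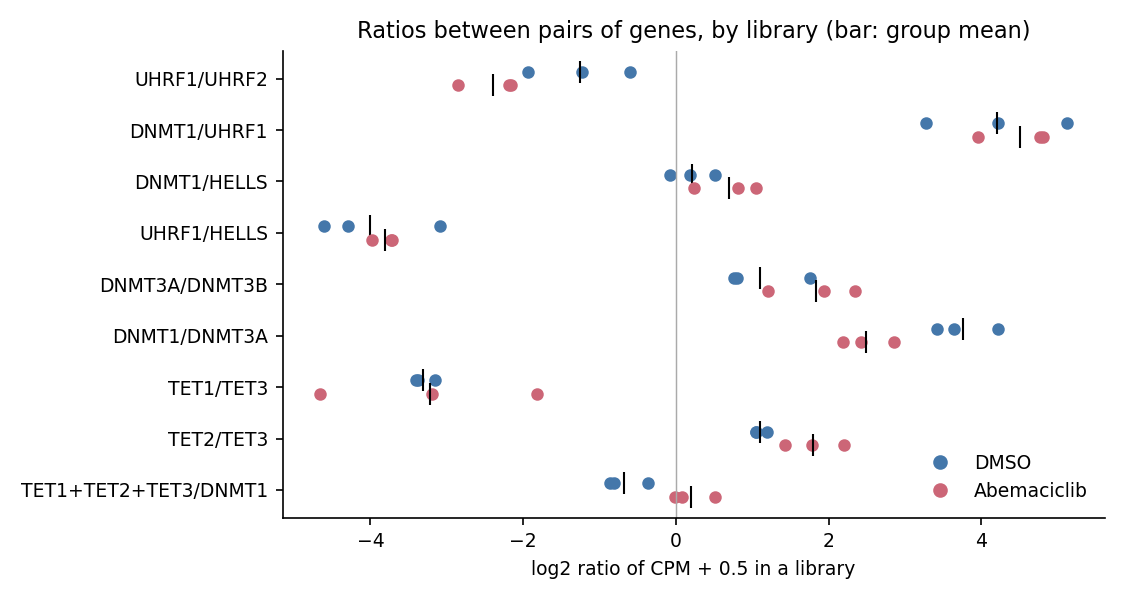
Each row plots the log2 ratio between 2 genes, or between the summed TET genes and DNMT1, in each library, with blue dots for DMSO, red dots for abemaciclib and a black tick at each group mean. The groups are apart for UHRF1/UHRF2, DNMT1/DNMT3A, TET2/TET3 and the summed TET genes over DNMT1, and overlap in the other 5 rows.

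Most genes in a list of maintenance methylation partners were lower as well. The list was chosen with earlier results of these data known. Of 10 partners of maintenance methylation, all tested, 7 fell and 0 rose by edgeR's test, with 0 higher also by DESeq2 and at an unadjusted p under 0.05. The list's median log2 fold change was -0.71, beside 13.3% lower and 12.5% higher among all genes. PCLAF, the PCNA-binding protein that UHRF1 ubiquitinates, had 422, 400 and 385 counts with DMSO and 10, 18 and 20 with abemaciclib. It went from 119.3 ± 2.92 to 4.29 ± 1.20 CPM (SD, n = 3 each), with a log2 fold change of -4.77 and an adjusted p of 2.131e-17 by edgeR's quasi-likelihood test. PCNA, the sliding clamp of replication, had 154, 156 and 126 counts with DMSO and 59, 36 and 29 with abemaciclib, with a log2 fold change of -1.92. CDCA7, the zinc finger protein that brings HELLS to nucleosomes, had 16, 21 and 24 counts with DMSO and 0, 10 and 11 with abemaciclib, with a log2 fold change of -1.68 and an adjusted p of 0.0371 by the same edgeR test. Its paralogue CDCA7L, whose 3′ end overlaps DNAH11 on the opposite strand, had a log2 fold change of -2.28. LIG1, the DNA ligase whose methylated tail UHRF1 binds, had a log2 fold change of -0.86, and TRIM28, a corepressor of KRAB zinc finger proteins, one of -0.56. The smallest change among the 7 that fell was that of USP7, a deubiquitinase of UHRF1 and DNMT1, at -0.28. The call of CDCA7 was lost in 6 of the 11 alternatives that gave it a value, DESeq2 among them, and that of USP7 in 5 of 12, while those of the other 5 partners held in all 12. EHMT1 and EHMT2, the methyltransferases that modify LIG1, and ZBTB24, the factor that activates CDCA7, were not called, with log2 fold changes of 0.08, 0.17 and -0.22, and the 3′ ends of the latter pair overlap EHMT2-AS1 and MICAL1.

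Of the partners of de novo methylation, 5 of 6 were tested and 1 was lower, beside 13.3% lower among all genes. This was NSD2, which writes the H3K36 dimethyl mark that DNMT3A reads. It had 416, 413 and 474 counts with DMSO and 197, 216 and 216 with abemaciclib, with a log2 fold change of -1.18 and an adjusted p of 2.346e-08 by edgeR's quasi-likelihood test. Its paralogue NSD1 and SETD2, which writes the H3K36 trimethyl mark, were not called, with log2 fold changes of -0.13 and -0.03, and neither were QSER1 and MORC2, whose 3′ end overlaps MORC2-AS1.

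Of 13 genes for TET partners and the removal of oxidized bases, 1 rose and 2 fell, shares near the 12.5% higher and 13.3% lower of all genes, and the median log2 fold change was 0.03. NEIL3, a DNA glycosylase, had 33, 46 and 23 counts with DMSO and 6, 1 and 3 with abemaciclib, with a log2 fold change of -3.41. Its relative NEIL2 had 86, 56 and 60 counts with DMSO and 105, 115 and 110 with abemaciclib, with a log2 fold change of 0.58 and an adjusted p of 0.0377 by edgeR's quasi-likelihood test. APEX1, the endonuclease that cuts abasic sites and whose 3′ end overlaps PIP4P1 on the opposite strand, had a log2 fold change of -0.28 with an adjusted p of 0.0482 by the same edgeR test. NEIL3 kept its call in all 11 alternatives that gave it a value, NEIL2 lost its call in 6 of 12 and APEX1 in 8 of 12, DESeq2 included for both. TDG, the glycosylase that removes the oxidized bases made by TET, was not called, with 232, 214 and 261 counts with DMSO and 254, 311 and 349 with abemaciclib. The TET2-binding protein CXXC4 was just outside the threshold, with a log2 fold change of -1.29 and an adjusted p of 0.0529 by the same edgeR test.

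In the lists for readers of the mark and the supply of its substrates few genes were called, at shares near the 12.5% higher and 13.3% lower of all genes. Of 9 genes listed as readers of methylated CpG or their relatives, 1 was higher and 1 lower, at a median log2 fold change of -0.23. MBD3, MBD5 and MBD6 belong to the MBD family but are not established readers of the mark. None of them was called, and the median was the value of MBD5. MBD2, a subunit of the NuRD complex, went from 193.8 ± 1.75 to 127.4 ± 19.1 CPM (SD, n = 3 each), with a log2 fold change of -0.60. ZBTB4, a zinc finger reader, went from 39.9 ± 5.09 to 64.9 ± 7.66 CPM (SD, n = 3 each), with a log2 fold change of 0.70. Of 5 readers of unmethylated CpG, 1 was higher and 1 lower. CXXC1, a subunit of the SET1 complexes, was the lower one at -0.64, and KDM2A, an H3K36 demethylase, was the higher one at 0.25. Of 7 genes listed for methyl donor supply and relatives, the 1 called was AHCYL1, higher at 0.62. AHCYL1 and AHCYL2 are relatives of the S-adenosylhomocysteine hydrolase AHCY that are not known to share its activity. Of the genes not called, MAT2A, MAT2B and MTR were at -0.21, -0.51 and -0.07, and AHCY, AHCYL2 and MTRR at 0.31, 1.17 and 0.49. The list's median was 0.31, which was 0.11 over the genes with at least 10 counts in every library. Of 5 enzymes that make 2-oxoglutarate or remove 2-hydroxyglutarate, the 1 called was IDH1, the cytosolic isocitrate dehydrogenase, higher at 0.41 with an adjusted p of 0.0391 by edgeR's quasi-likelihood test. The call of KDM2A was lost in 8 of 12 alternatives and that of IDH1 in 7 of 12, while MBD2, ZBTB4, CXXC1 and AHCYL1 kept theirs in all 12. Over these 7 lists together, 54 of 55 genes were tested, of which 5 were higher and 12 lower, 7 of the latter being maintenance partners, with a median log2 fold change of -0.09. Among all genes tested 12.5% were higher and 13.3% lower.

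**Figure D5:**
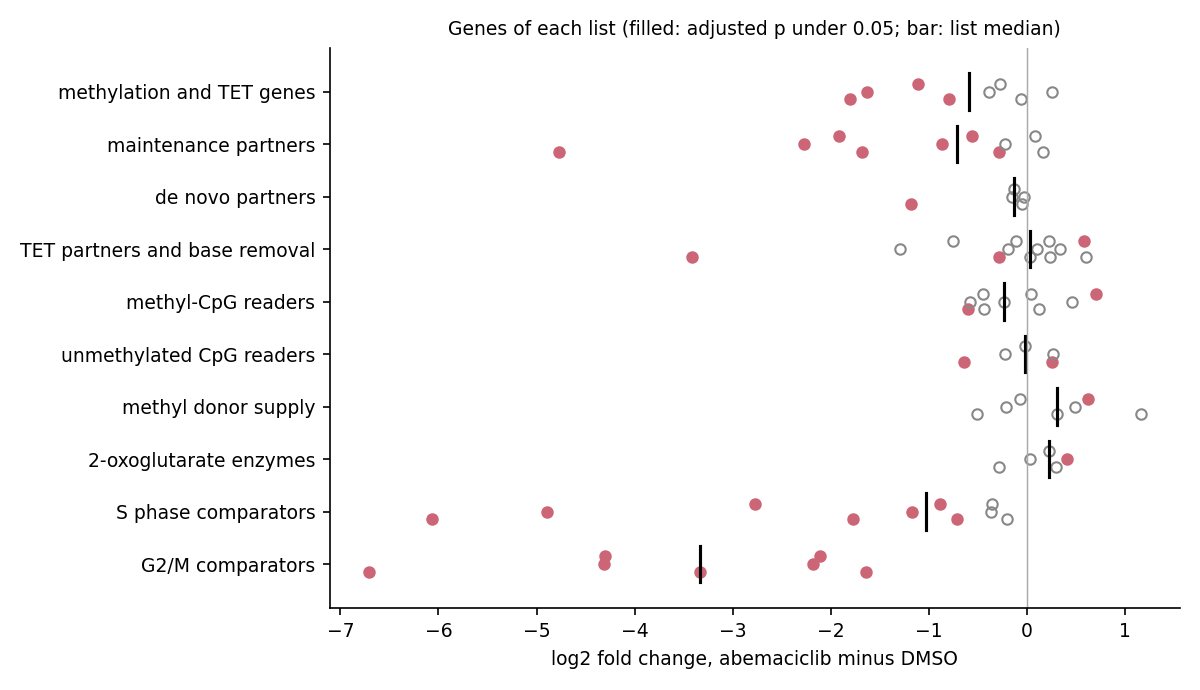
Each row plots the log2 fold change of abemaciclib over DMSO for the genes of 1 list, with filled red circles for genes past an adjusted p of 0.05, open grey circles for the others and a black bar at the list median. The maintenance partners (median -0.71) lie to the left, the other partner and reader lists lie around 0, while genes of S phase and G2/M lie farthest to the left.

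Genes of the cell cycle moved in the same libraries. Of 10 S phase genes 7 fell by edgeR's test at a median log2 fold change of -1.03, beside 13.3% lower among all genes tested. Their summed level was 524.9 to 589.1 CPM with DMSO and 244.1 to 248.4 CPM with abemaciclib. Of 7 G2/M genes all 7 were lower, beside the same 13.3%, with a median of -3.34. The summed level of these G2/M genes was 3001 to 3192 CPM with DMSO and 191.8 to 201.8 CPM with abemaciclib. The summed level of the 9 methylation and TET genes was 326.5 to 343.1 CPM with DMSO and 151.3 to 208.6 CPM with abemaciclib. The log2 fold change of DNMT1 was near that of the replicative helicase subunit MCM6, -1.17, and far from those of the thymidylate synthase gene TYMS, -6.06, whose 3′ end overlaps ENOSF1 on the opposite strand, and of the ribonucleotide reductase subunit RRM2, -4.90. The helicase subunit MCM3, the loading factor CDC6 and the flap endonuclease FEN1 were not called, with log2 fold changes of -0.20, -0.36 and -0.37. The part of the cell cycle in the lower levels of DNMT1, UHRF1, HELLS and TET3 was not tested.

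Germline genes, which are known for methylated promoters in somatic cells, were nearly absent from both groups. Of 15 such genes 11 had 0 counts in every library. SYCP1 and MAGEA1 had 1 count each, in a DMSO library. CTAG2 had 5, 6 and 10 counts with DMSO and 4, 6 and 6 with abemaciclib. MAGEA3, which has near-identical copies that could share its reads, had 22, 13 and 19 counts with DMSO and 22, 27 and 27 with abemaciclib. It was the single one tested, with a log2 fold change of 0.36, an interval of -0.46 to 1.19 and an adjusted p of 0.566 by edgeR's quasi-likelihood test. By this test and by DESeq2 0 germline genes were called, and 0 had an unadjusted p under 0.05, out of the 1 that could be tested.

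Among 8126 other genes with a mean of at least 10 CPM, those whose log2 level over the 6 libraries, each centred on its own mean, differed least from each changed gene were listed, 3 per gene. For DNMT1 they were SNHG3, CCDC90B and COPS3, with a root mean square difference of 0.08 to 0.11 on the log2 scale. For HELLS they were KRT81, SORBS3 and ATF4, at 0.09 to 0.12, and for TET3 DHTKD1, SCRIB and BACE2, at 0.07 to 0.08. For UHRF1 the nearest were B4GALNT1, KLF4 and ITGB4 at 0.24 to 0.35, and in its pattern DMSO replicate 2 stood above the rest. No partner of maintenance methylation was in these lists, but 3 genes out of 8126 are too few to show whether partners followed a similar pattern. The 6 points also share libraries and groups.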

How the data were processed

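The 6 RNA libraries, all of parental ZR-75-1 cells, were grouped by the treatment and replicate number in their labels. The authors trimmed the reads with BBDuk, aligned them to hg38 and counted them per gene on a GENCODE annotation, and the submitters' processing notes name STAR 2.7.5b and featureCounts 2.0.1. The deposited values are raw counts without normalization, and whether counting used the strand is not given in the sources used here. Ensembl identifiers gave a symbol for 60401 genes and no symbol for 255. Positions of genes follow GENCODE on GRCh38, and upstream sequences are from RefSeq on GRCh38.p14.

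Counts were analysed with edgeR 4.0.16 under R 4.3.3 (genes kept by filterByExpr, TMM scaling, glmQLFit and glmQLFTest, group as the single term, two-sided, Benjamini–Hochberg). A standard error is the fold change divided by the square root of F. The biological coefficient of variation was 13.2%. Replicates of a group differed by 2.83 to 7.41 in chi-square per degree of freedom, so none was a repeat of another. Exact tests and intervals used scipy 1.17.1. Total counts were 3317860 to 4013156. No molecular identifiers are described, so intervals of shares and limits at 0 cover counting error only.

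The 9 genes and all lists were chosen with earlier results of these data known. The genes named were the 9, any gene of the lists given with its values, and for each gene past the threshold the 3 genes with the nearest library pattern. Alternatives were the test of DESeq2 1.42.0, edgeR with the size factors of DESeq2 or with plain library totals, filters of none and of 10 or more counts per library, the replicate number as a block, the omission of 1 library at a time, and pseudocounts of 0.1 and 2 CPM for ratios.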

Additional observations from a re-analysis of the deposited data

How the results depend on the processing

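Of the 4 genes that fell, DNMT1 and HELLS kept direction and call under every alternative run. With 1 library left out, the log2 fold changes ranged from -2.12 to -1.17 for UHRF1, -0.89 to -0.73 for TET3, 0.032 to 0.56 for DNMT3A, -0.54 to -0.10 for UHRF2, -1.0 to 0.056 for DNMT3B and -0.21 to 0.036 for TET2. UHRF1 lost its call without DMSO replicate 2 or abemaciclib replicate 2, and TET3 without DMSO replicate 1. The number of the 9 genes called lower was 3 to 4, and 0 were higher. Under the minimum of 10 counts UHRF1 and DNMT3B were not tested. Over the 7 partner and reader lists, the 5 genes higher became 3 with DESeq2, 3 with the replicate block and 2 to 4 with a library left out, and the 12 lower became 9 to 13 with a library left out and 10 to 14 under the other alternatives. Same-numbered libraries deviated together with correlations of -0.04, 0.01 and -0.09, not every library correlated best with its own number, and the samples share only a number. With that number as a replicate block, 1139 genes were higher and 1280 lower in place of 1354 and 1442, and UHRF1 (-1.70, adjusted p 0.0344 by edgeR) and TET3 (-0.79, adjusted p 0.0217 by edgeR) kept their calls. The ratio differences that turned sign were DNMT1/UHRF1 (-0.053 with 2 CPM added, -0.16 to 0.76 with a library left out), UHRF1/HELLS (-0.11 to 0.64) and TET1/TET3 (-0.58 with 0.1 CPM added, -0.61 to 0.81). Of the list medians, that of TET partners was -0.044 with the replicate block and -0.082 to 0.16 with a library left out. With a library left out, that of methylated CpG readers and their relatives was -0.38 to 0.021. That of unmethylated CpG readers was then -0.11 to 0.0898. Those of methyl donor supply and 2-oxoglutarate enzymes were 0.20 to 0.38 and 0.014 to 0.33 with a library left out. The cause of these changes was not tested. Counts of 39 or fewer per library limit UHRF1, and counts of 18 or fewer limit DNMT3B and TET1.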
